A study of Mus musculus with 8 samples.

Results

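The CGs described here are the cytosines in CG context that lie far from genes. A member was an autosomal CG more than 10 kb from any gene of the GENCODE annotation of mm9, pseudogenes and small RNAs included, and covered by at least 10 reads in each of 8 mouse livers. Of 173739 autosomal CGs with that coverage, 29220 were members (16.8%), with each strand counted as a site of its own. They made up 12639 regions when members no more than 300 bp apart were joined, and 4994 regions held a single CG. The median distance from the nearest gene was 40.8 kb and the highest 1132 kb. Methylation was read by reduced representation bisulfite sequencing (RRBS), in which MspI cuts at CCGG and unmethylated cytosines are converted and read as thymine, so members lay within 50 bases of such a site. The level of a CG is the percentage of its reads that kept a cytosine. The mice were 1 female and 1 male of each of 4 groups: the inbred strain C57BL/6J (B6), the inbred strain DBA/2J (DBA), and the F1 hybrids C57BL/6JxDBA/2J (BXD) and DBA/2JxC57BL/6J (DXB) of the 2 reciprocal crosses. All were 16 weeks old and had been fasted for 16 h, and none was otherwise treated. Each strain and sex was thus represented by a single mouse.

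In mammalian genomes most CGs outside promoters carry methyl groups, which DNMT1 copies to the new strand after replication. Over evolutionary time methylated CGs are lost by deamination, and dense clusters of CGs, the CpG islands, remain mostly where methylation is absent. Such islands usually mark gene starts, while islands far from annotated genes, called orphan islands, can mark distant regulatory elements or starts of transcripts that are not annotated.

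The sequences of 3 low-methylated islands are shown to display their density of CGs (in capitals). They are from the + strand of NCBIM37 (mm9), at chr6:39822974-39823193, chr5:52505242-52505461 and chr15:102577271-102577490, and are the densest stretches of the islands nearest to Mrps33, Dhx15 and Calcoco1. For contrast a stretch of a region with many CGs that was methylated in every mouse is shown, at chr10:83169750-83169934 near 1500009L16Rik. Over these 4 stretches, the islands held 23, 27 and 25 CGs and the methylated stretch 9. These are the CGs of the reference sequence, measured or not, while the sizes of islands given below count members.
Mrps33 island: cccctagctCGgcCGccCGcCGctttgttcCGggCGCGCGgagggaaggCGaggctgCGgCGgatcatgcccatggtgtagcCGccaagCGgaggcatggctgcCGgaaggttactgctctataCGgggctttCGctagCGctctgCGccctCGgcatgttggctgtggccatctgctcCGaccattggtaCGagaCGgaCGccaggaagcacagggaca
Dhx15 island: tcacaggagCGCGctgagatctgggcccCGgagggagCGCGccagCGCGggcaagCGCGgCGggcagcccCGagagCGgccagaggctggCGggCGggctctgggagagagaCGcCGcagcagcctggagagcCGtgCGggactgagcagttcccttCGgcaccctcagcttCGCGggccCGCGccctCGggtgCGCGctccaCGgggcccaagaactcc
Calcoco1 island: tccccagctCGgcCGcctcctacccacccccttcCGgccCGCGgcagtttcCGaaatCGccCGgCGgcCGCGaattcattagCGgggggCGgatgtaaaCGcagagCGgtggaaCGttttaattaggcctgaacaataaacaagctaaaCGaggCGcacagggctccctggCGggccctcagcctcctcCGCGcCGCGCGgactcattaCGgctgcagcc
Methylated region: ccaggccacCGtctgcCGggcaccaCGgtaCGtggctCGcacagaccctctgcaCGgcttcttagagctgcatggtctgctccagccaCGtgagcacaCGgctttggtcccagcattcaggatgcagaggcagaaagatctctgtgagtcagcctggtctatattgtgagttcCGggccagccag

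The next sequences carry the strain difference. The first 2 are regions in which several CGs were higher in B6, at chr12:26556150-26556334 and chr2:20924211-20924414, with every CG in capitals. The others are 42-base windows around single CGs, the first, the third and the fifth in size of difference among those called in both sexes with at least 20 reads in each parent, at chr1:158346391-158346432, chr3:71199737-71199778 and chr10:117384840-117384881, with the called CG alone in capitals. All are the + strand of NCBIM37 (mm9), a genome of B6 origin, in which each of the 29220 members is a CG.
Region on chromosome 12: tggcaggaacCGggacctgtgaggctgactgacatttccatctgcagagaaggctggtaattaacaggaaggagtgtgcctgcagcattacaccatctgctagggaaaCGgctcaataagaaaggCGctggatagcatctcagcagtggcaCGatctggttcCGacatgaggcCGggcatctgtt
Region on chromosome 2: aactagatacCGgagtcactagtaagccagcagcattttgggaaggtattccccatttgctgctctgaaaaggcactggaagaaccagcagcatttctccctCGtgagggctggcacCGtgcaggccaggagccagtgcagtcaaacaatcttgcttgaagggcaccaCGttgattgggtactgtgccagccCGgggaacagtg
Site near Soat1: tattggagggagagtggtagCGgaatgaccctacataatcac
Site on chromosome 3: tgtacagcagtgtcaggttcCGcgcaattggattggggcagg
Site near Rap1b: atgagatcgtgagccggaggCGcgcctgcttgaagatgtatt

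The libraries held 200744653 to 845527087 cytosine calls (reads summed over cytosines), and the median coverage of a member ran from 33 reads in the DBA female to 180 in the BXD male. The DNA of the library labelled B6 male went against its label in parts of the genome. Reads sorted by a SNP were 83.9% B6 in it, against 99.7% in the B6 female. Of 1600 windows of 1 Mb with enough such reads, 138 held at least 90% DBA reads. Shares of sorted reads in a library or window were taken over cytosine calls, so a read counted once for each cytosine it covered. A larger set of 439 windows held more than 10% DBA reads, and 5454 members (18.7%) lay in them. Without the members in these windows, 23766 were left, among them members whose window had too few sorted reads to be examined. The mean level of those left was 73.5%, against 73.0% over all members, and 55 of the 64 islands described below were left. The calls that rest on this library are given with and without the windows, and for each single region or CG described from inside them the share of DBA reads in its window is given. Of 13 liver genes chosen to check the tissue, 4 had promoter CGs with coverage, and their levels were 1.74% (Apoh), 23.9% (Fga), 24.9% (F2) and 30.4% (Hnf4a), while none of 7 blood genes was covered. Of 6 endothelial and stellate genes 4 were covered, at 6.05% to 87.1%, and their median of 9.24% lay below that of the liver genes, 24.4%. The promoter levels therefore did not set the liver genes apart.

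Distal intergenic CGs were mostly methylated. Their mean level was 73.0% ± 0.687 (SD, n = 8 mice), with the lowest value in the DBA male (72.1%), and the highest in the B6 female (74.1%). The median CG was at 86.6%, and 17932 members (61.4%) were at 80% or more. A smaller set of 2204 members (7.54%) was below 10%, and 7989 (27.3%) lay between 20% and 80%. The mean of each autosome ran from 65.1% on chromosome 19 to 77.4% on chromosome 10. At 219 CGs both strands were members, and their levels differed by 4.53 percentage points on average. Members that were the CG of an MspI site itself (57.5%) had a mean level of 79.1%, and the other members 64.7%.

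Distal CGs were methylated more than CGs in any of the 3 classes they were compared with. The mean of intron CGs was 70.1%, lower than that of distal CGs by 2.88 ± 0.321 percentage points (SD, n = 8), and intergenic CGs within 10 kb of a gene were at 55.9%, lower by 17.1 ± 0.523. Promoter CGs, within 1 kb of a gene start, had a mean of 12.1%, lower by 60.9 ± 1.58. The difference from introns was 4.76 points for members beyond 20 kb from a gene and 7.58 beyond 50 kb. Each difference had the same sign in 8 of 8 mice (exact two-sided sign-flip test, p = 0.0078125, the smallest that 8 mice allow, and 0.0078125 after adjustment for 3 tests). No class overlapped another in the mean levels of the mice, as seen in the plot of levels by class.

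**Figure D1:**
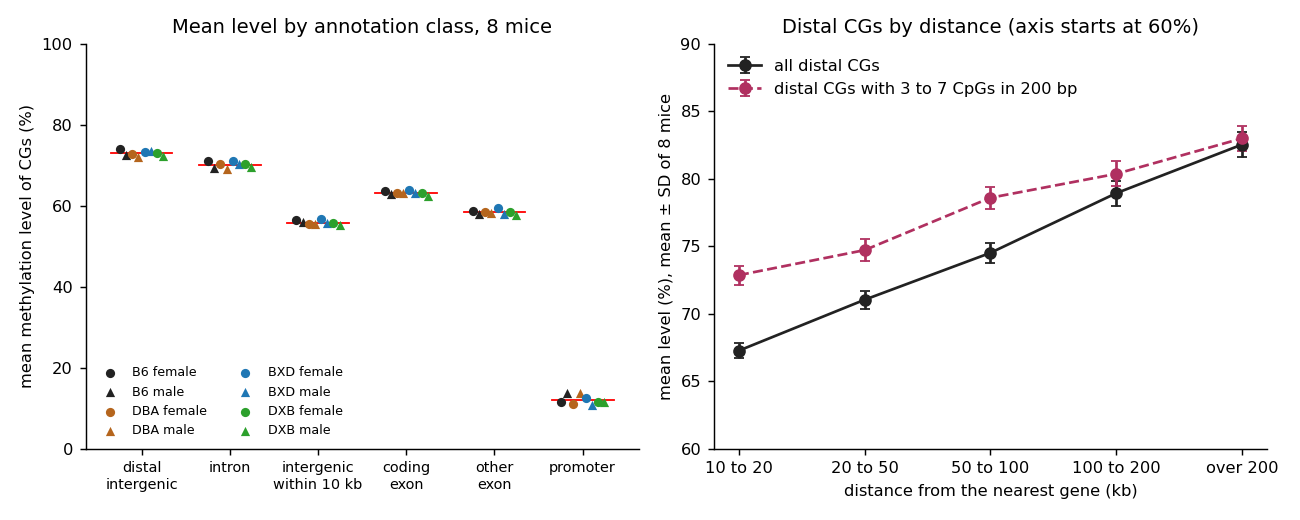
Left, mean methylation level (%) of the CGs of each annotation class in each of 8 mice, with the mean as a red line: distal intergenic CGs sat at 72.1% to 74.1% and promoter CGs at 10.9% to 13.7%. Right, mean level (%) of distal CGs by distance from the nearest gene in kb (mean ± SD of 8 mice, axis from 60%), which went from 67.3% to 82.5% over all members.

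The level of distal CGs was higher the farther they lay from a gene. Members 10 to 20 kb away had a mean of 67.3% ± 0.547, those at 20 to 50 kb 71.05% ± 0.679, and those at 50 to 100 kb 74.5% ± 0.736. At 100 to 200 kb the mean was 78.9% ± 0.927 and beyond 200 kb 82.5% ± 0.915. The order of these distance classes was the same in each of the 8 mice. The farthest class exceeded the nearest by 15.3 ± 0.592 percentage points in 8 of 8 mice (exact sign-flip test, p = 0.0078125). The share of members below 20% went from 15.9% in the nearest class to 3.18% in the farthest. CpG density moved with distance, at a median of 5 CpGs in the surrounding 200 bp in the nearest class and 4 in the farthest. Among members with 3 to 7 CpGs in 200 bp, a range chosen after seeing the data, the difference was 10.1 ± 0.535 points (exact sign-flip test, p = 0.0078125).

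Sparse CGs far from genes were methylated and the densest ones were not. Members with 1 or 2 CpGs in 200 bp had a mean of 81.7%, those with 5 to 7 had 74.1%, and those with 12 to 15 had 50.4%. At 16 or more CpGs the mean was 6.72% ± 0.820 (n = 8), and 923 of these 999 members were below 20%. At 12 to 15 CpGs intron CGs were at 27.5% and promoter CGs at 7.12%. At 16 or more, intron CGs were at 5.29% and promoter CGs at 3.22%. In each of the 6 density classes the mean was higher in distal CGs than in promoter CGs.

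**Figure D2:**
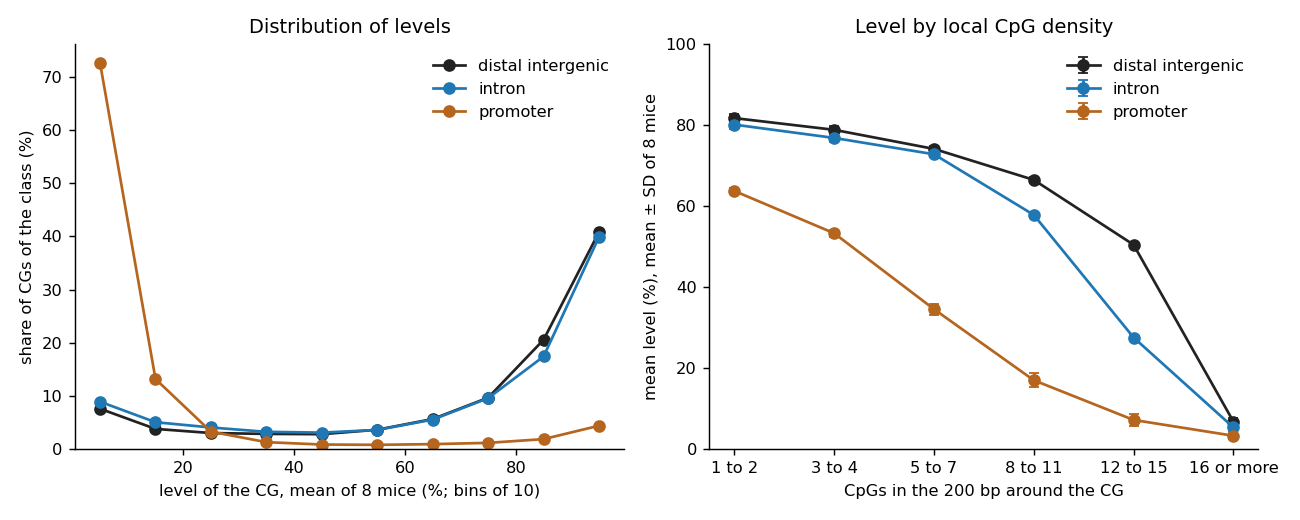
Left, share (%) of the CGs of 3 classes in each bin of 10 percentage points of level, where 40.8% of distal CGs fell in the top bin and 72.7% of promoter CGs in the lowest. Right, mean level (%, mean ± SD of 8 mice) by the number of CpGs in 200 bp, with distal CGs at 81.7% in the sparsest class and 6.72% in the densest.

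Low-methylated islands were found far from genes on all 19 autosomes. An island was a region of at least 10 members whose mean level was below 20% in each of the 8 mice. Of 91 regions with at least 10 members, 64 were islands, with 900 CGs or 3.08% of the members. Of these CGs 872 were below 20%, which is 26.4% of the 3299 members below that level. The count depends on the rule, with 27 islands at 20 reads or more and 225 with at least 5 members. Since islands were chosen by level, their levels are a description. The median island was at 3.63% (0.427% to 12.6%), 48 islands were below 10% in every mouse and 19 below 5%. The highest mouse reached 19.01% and 16.6% in the islands nearest to the limit, and 22.5% and 28.4% in the regions just outside it.

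Islands had the base composition of CpG islands. Their median GC content was 66.0% and the ratio of observed to expected CpGs 0.856, and 56 of 64 (87.5%) had a GC content of at least 50% and a ratio of at least 0.6. Of the 13 regions that were at 80% or more in every mouse, 4 met these criteria, with a median ratio of 0.588 and a GC content of 51.3%. Of the remaining 14 regions 5 met the criteria. Islands lay a median of 24.0 kb from the nearest gene, 22 of them within 20 kb, 15 beyond 50 kb and 5 beyond 100 kb. These distances, and those below, are to genes of the annotation used. Whether an island lies at a gene that this annotation lacks was not tested.

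The island with the most CGs, 30, lay at chr6:39822474-39823218, 61.5 kb upstream of Mrps33, which encodes a protein of the small mitochondrial ribosomal subunit. Its level had a lowest value of 2.56% (BXD male), a median of 3.36% and a highest of 7.64% (DBA male), with the B6 male next at 7.16%. The second island, with 27 CGs, was 36.0 kb downstream of Dhx15, an RNA helicase of the spliceosome, at 2.39% to 6.52% with a median of 3.38%. Another, with 25 CGs, lay 22.8 kb upstream of Rnf180, a ubiquitin ligase, at 2.08% to 5.19% with a median of 3.16%. The male parents were the highest mice at the first and second of these, and the BXD female at this one.

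An island of 20 CGs lay 24.7 kb upstream of Calcoco1, at 2.22% to 6.35%. One with 19 CGs lay 32.4 kb upstream of Scrt2, a zinc finger repressor of the nervous system, with the non-coding AA387200 closer, at 25.7 kb, and ran from 1.398% to 5.95%. Another with 19 CGs, 30.7 kb upstream of Tbx5, a transcription factor of heart and forelimb, had values from 1.52% to 4.50% with a median of 2.53%. In F1 mice the reads over this island could be sorted to a parent, and the B6 chromosome was at 1.97% (1626 reads over its CGs) and the DBA chromosome at 1.38% (1743). Both chromosomes were low, in an island chosen for a low level in every mouse.

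The remaining island with 19 CGs, 11.6 kb upstream of BC017612, was at 0.836% to 3.14% in 7 mice and at 6.13% in the DXB female. The island 22.3 kb downstream of H3f3a, a gene of histone H3.3, ran from 1.80% to 6.10%, and that 52.3 kb downstream of Odf3l1 from 3.43% to 5.54%. The window of the Odf3l1 island held 48.8% DBA reads in the library labelled B6 male, which was at 4.03%. The lowest was an island of 18 CGs at chr10:18038833-18039068, 71.1 kb upstream of Nhsl1, with a median of 0.487% and a highest value of 0.658%. It had no methylated read in the BXD male, and its window held 12.9% DBA reads in the library labelled B6 male, which was at 0.190%.

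The islands nearest to and farthest from a gene are named here after their values were seen. The closest was 10.6 kb from Zfhx3, a transcription factor gene, at 0.986%. After it came islands 11.3 kb from Il20rb, a cytokine receptor gene, at 2.70%, and 11.6 kb from BC017612, described above. At 11.7 kb lay those near Ercc1, a DNA repair gene, at 1.46%, and Csnk1e, a casein kinase gene, at 12.6%, the highest level of the islands. The Csnk1e window held 52.3% DBA reads in the library labelled B6 male, which was at 9.25%. The 5 farthest islands were 115.2 kb (nearest gene SNORA17, 5.37%), 123.1 kb (Kcnh8, a potassium channel, 4.48%), 135.4 kb (a miRNA, with Bmp7 the closest coding gene, 2.96%), 219.4 kb (Gm10479, 4.10%) and 561.5 kb (a 5S rRNA copy, 11.3%) from a gene. Of these, the windows of the island near Kcnh8 and of that near the 5S rRNA copy held 51.5% and 99.6% DBA reads in the library labelled B6 male, which was at 6.88% and 13.7% there.

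Averaged over the 64 islands, the level of a mouse ran from 3.42% in the BXD male to 6.08% in the B6 male, with the DBA male at 6.04%. These 2 mice were the highest in 21 and 24 of the islands. At promoter CGs they were also the highest, at 13.67% and 13.69%, with the other mice at 10.9% to 12.6%. Over the 55 islands outside the windows of more than 10% DBA reads, some in windows not examined, the B6 male and the DBA male were at 5.91% and 5.80%. They were the highest in 19 and 21 of these. Methylation at cytosines outside CG context far from genes, which also holds unconverted cytosines, was 0.332% in the B6 male, the lowest of the 8 mice, and 0.733% in the DBA male, within a range up to 1.16%. The part of incomplete conversion in the island levels was not tested. At 1 island both B6 mice exceeded both DBA mice by more than 5 points. It lay 20.7 kb upstream of Gm10330 and was at 15.5% and 19.01% in B6, 1.68% and 2.65% in DBA and 8.46% to 12.3% in the F1 mice. The gap between the strains there was 12.8 points, and the next largest of any island was 3.13.

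**Figure D3:**
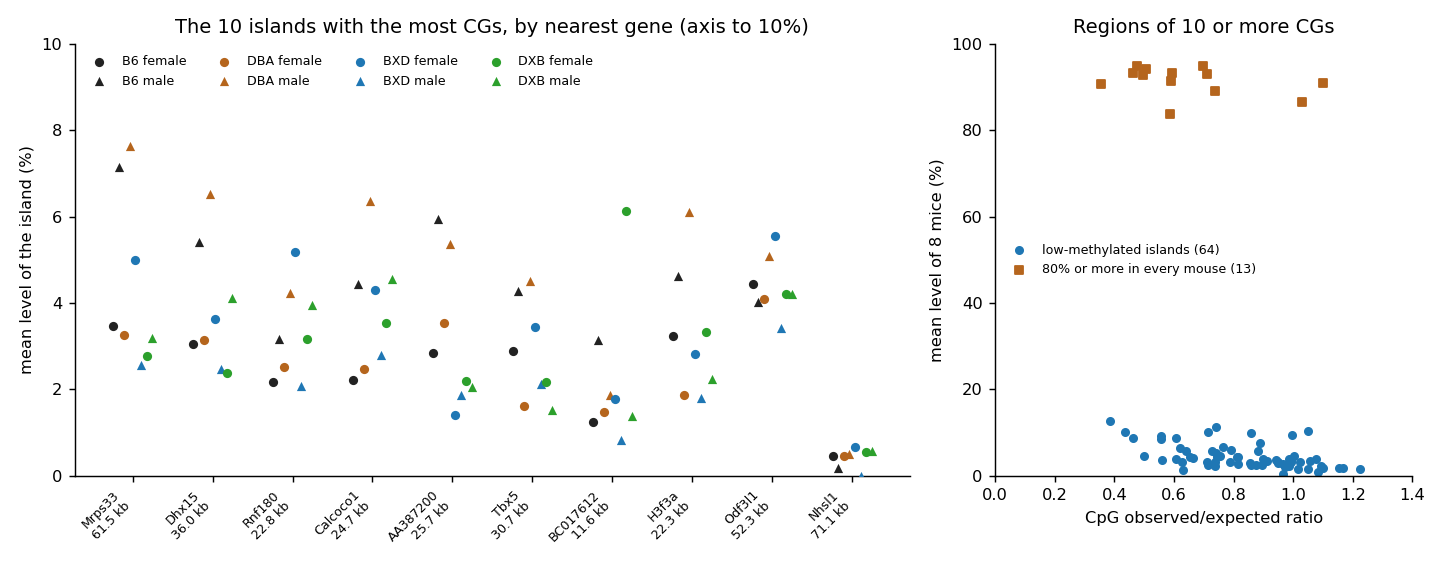
Left, mean level (%, axis to 10%) of the 10 islands with the most CGs in each of 8 mice, named by nearest gene and distance, where the Mrps33 island ran from 2.56% to 7.64% and the Nhsl1 island stayed below 0.7%. Right, level (%, mean of 8 mice) against the CpG observed to expected ratio for the 64 islands (blue) and the 13 regions at 80% or more in every mouse (brown), with median ratios of 0.856 and 0.588.

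The 13 methylated regions with many CGs had a median level of 92.9%, the lowest at 83.9%. The one with the most CGs, 15, at chr8:25464459-25465507, was at 89.1% to 91.9%, and its window held 63.2% DBA reads in the library labelled B6 male, which was at 90.7%. The region near 1500009L16Rik, with 13 CGs, ran from 92.1% to 93.9%. A region of 10 CGs 256.4 kb from Col12a1, which encodes a collagen chain, had a ratio of observed to expected CpGs of 1.10 and was at 83.8% in the DBA male and 88.5% to 94.2% in the others. Its window held 39.3% DBA reads in the library labelled B6 male, which was at 92.9%. Of these 13 regions the one near Col12a1 had the highest ratio, above the median of the islands.

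Most distal CGs varied little among mice, and those of intermediate level varied most. The SD over the 8 mice had a median of 4.76 percentage points, 15412 members (52.7%) were below 5 points, and 417 (1.43%) were above 20. Averaged as a variance, the spread among mice was 2.34 times that which counting of reads alone gives, and 2.30 times in introns. In members between 20% and 80% the root mean square SD was 11.4 points against 6.85 from counting. Below 10% these values were 3.06 and 2.37 points, and at 80% or more 5.24 and 3.94. Counting is the least that separate mice can vary, and the part of duplicate reads in the rest was not tested.

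Mice of the same strain differed by 5.003 to 8.12 percentage points on average over members (4 pairs), with the DBA mice farthest apart and the BXD mice closest. B6 and DBA mice differed by 6.47 to 8.16 points (4 pairs), and a BXD and a DXB mouse by 5.03 to 5.39 (4 pairs). The ranges of same-strain and between-strain pairs overlapped, also without the windows of more than 10% DBA reads in the B6 male (4.99 to 8.08 and 6.34 to 8.07 points). The DBA mice had the lowest coverage of members, with medians of 33 and 37 reads, and its part in these differences was not tested.

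The region of at least 10 members with the largest spread lay on chromosome 12, at 20237401 to 20237694, 184.1 kb upstream of Gm10479. Its 10 CGs were at 71.3% and 69.6% in the B6 female and male, 67.6% in the DBA female, 81.9% and 77.04% in BXD and 75.4% and 70.9% in DXB. The DBA male was at 39.6%, far below the other 7 mice, while the female of the same strain lay next to B6. A region of 14 CGs on chromosome 18, 306.8 kb downstream of Smad2, a signal transducer of TGF-beta, ran from 26.7% in the DBA female to 54.5% in the BXD female with a median of 41.3%. One of 11 CGs 10.5 kb downstream of Krt80, a keratin gene, was at 34.6% to 40.6% in the 4 parents and 44.0% to 58.3% in the 4 F1 mice. The groups did not overlap, but the region was chosen for its spread and no test was made.

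A region of 12 CGs downstream of 4930505K14Rik was at 3.93% to 6.62% in the BXD male and the B6 and DBA females and at 15.3% to 22.5% in the other 5 mice. Of these the library labelled B6 male, at 17.3%, held 100% DBA reads in this window, so its value cannot be taken as that of B6. The 3 mice with low values had the most cytosine calls of the 8, and the part of depth in this was not tested. The fifth region, near the non-coding Gm13403, had its lowest level, 50.9%, in the DBA male, and reached 72.0% in the BXD female.

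**Figure D4:**
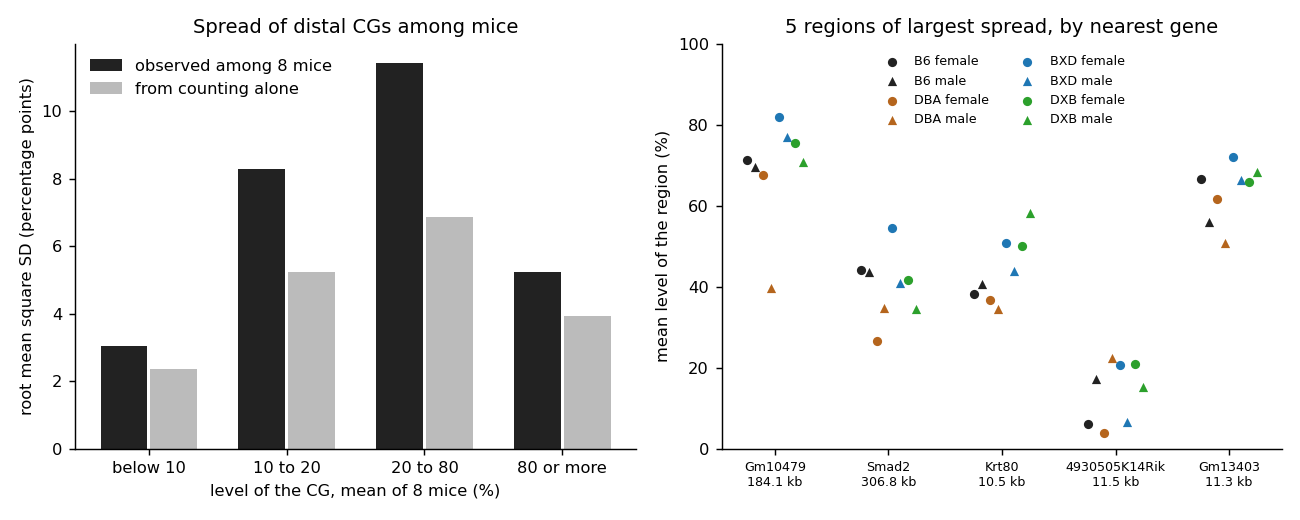
Left, root mean square SD of members among 8 mice (dark bars) and that expected from counting reads (light bars), in percentage points, by level, at 11.4 and 6.85 for members between 20% and 80%. Right, mean level (%) in each mouse of the 5 regions of largest spread, with the DBA male at 39.6% and the others at 67.6% to 81.9% in the first.

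The mean level of distal CGs did not differ detectably between the sexes or between F1 mice and parents. The 4 females were at 73.4% ± 0.552 and the 4 males at 72.7% ± 0.694, a difference of 0.688 points (exact two-sided permutation test, p = 0.171), with overlapping groups. Within a group the female exceeded the male by 1.55 points in B6, 0.847 in DBA and 0.668 in DXB, and in BXD the difference was -0.309 (exact sign-flip test over 4 pairs, p = 0.25, where the smallest possible is 0.125). Without the BXD male the difference was 1.02 points (exact permutation test, p = 0.0286). The F1 mice were at 73.1% ± 0.564 and the parents at 72.9% ± 0.875 (n = 4 each), a difference of 0.160 points (exact permutation test, p = 0.8). Its sign was not stable, at -0.359 points with at least 20 reads (exact permutation test, p = 0.4). B6 mice were at 74.1% and 72.6% and DBA mice at 72.9% and 72.1%, and with 2 mice a strain the smallest exact p is 0.333.

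Few distal CGs differed between the parent strains, and most of those called were more methylated in B6, 180 of 187 between the females and 137 of 171 between the males. A CG was called between 2 mice where the level of each lay outside the exact 95% binomial interval of the other and the levels differed by more than 50 points, a rule that covers counting error alone. Between the females 187 members were called (0.640%), against 0.361% of all 173739 CGs tested. Of these, 180 were higher in B6 (0.321% of all CGs were called in this direction) and 7 in DBA (0.0397%). The median B6 level at the 180 CGs was 88.1% and the median DBA level 0%, and 121 of them were at 2% or less in the DBA female. None of the 7 CGs higher in DBA was at 2% or less in the B6 female. On chromosome 12, between 20 and 30 Mb, 9 of 154 members were called, the highest count of 258 bins of 10 Mb, of which 109 had a call. As a share, 5.84%, it was below that of 40 to 50 Mb on the same chromosome, where 4 of 66 were called (6.06%). Called CGs of the same region were counted separately, and the shares of all autosomal CGs called in these bins are not given here.

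Between the males 171 members were called (0.585%, against 0.326% of all CGs), 137 higher in B6 (0.244% of all CGs) and 34 in DBA (0.0817%). Without windows of at least 90% DBA reads in the library labelled B6 male, 164 of 27753 members were called (0.591%, against 0.336% of all CGs left). Without those of more than 10%, 138 of 23766 members were called (0.581%, against 0.318% of all CGs left). The calls of the sexes shared 108 CGs in the same direction, 57.8% of the female and 63.2% of the male calls, and 0 in opposite directions. Outside the windows of more than 10% DBA reads, 126 of 132 female calls had a male difference of the same sign and 92 were called. Inside them, 16 of 55 were called in males.

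The F1 mice, which had no part in these calls, lay between the parents. Their mean level was within the range of the female parents at 185 of the 187 CGs. The rule made that range wider than 50 points, so a high count was likely. On a scale from DBA (0) to B6 (1) the median F1 level was 0.494 (quartiles 0.448 and 0.548). In F1 mice, 1838 members (6.29%) had at least 10 reads sorted to each parental chromosome. At 107 of the 180 CGs higher in the B6 female such reads were present, and at all 107 the B6 chromosome was higher, by a median of 83.6 points. Of the 29033 members that were not called, 1729 had such reads, with a median difference of 0 and 3 above 50 points. The called CGs thus had sorted reads more often, and the part of SNPs at the CG itself was not tested. Of the 7 CGs higher in DBA, 2 had sorted reads, with 1 difference in each direction.

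Most calls stood alone among their neighbours. Of the 187 CGs, 43 had another call of the same direction in their region, 138 were the only such call beside other members, and 6 were in regions of a single CG. At the CG of an MspI site 26 of 16806 members were called (0.155%), and at other members 161 of 12414 (1.30%). All members are CGs in the B6-derived reference. At members other than the CG of an MspI site, the absence of the CG from the DBA genome would also be read as a level near 0. At the CG of an MspI site it would also remove the cut, so the CG could lack the coverage in DBA mice that members need. The part of this coverage rule in the lower share called at MspI sites was not tested. The positions of SNPs were not used, and the part of CGs absent from the DBA genome in the calls was not tested.

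The 5 single CGs with the largest difference in both sexes, taken from 54 called in both with at least 20 reads in each parent, were at or near 100% in B6 and near 0% in DBA. The first, at position 158346412 of chromosome 1, 11.8 kb downstream of Soat1, which encodes an enzyme that esterifies cholesterol, was at 99.1% and 100% in the B6 female and male and 0.901% and 0% in the DBA mice. It was at 54.5% and 40.9% in BXD and 42.6% and 46.8% in DXB, so all F1 mice lay between the strains. The next, at position 74407762 of chromosome 9, 197.2 kb from an snRNA gene, was at 100% in both B6 mice, 0% in the DBA female, 2.50% in the DBA male and 36.2% to 50.8% in F1.

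At position 71199757 of chromosome 3, 588.5 kb from the nearest gene, the levels were 94.0% and 100% in B6, 0% in both DBA mice and 24.1% to 51.1% in F1. At position 14798669 of chromosome 11 they were 100% in both B6 mice, 3.85% and 4.31% in DBA and 37.5% to 51.5% in F1. At position 117384860 of chromosome 10, 101.9 kb upstream of Rap1b, a small GTPase, they were 95.8% and 96.4% in B6, 1.16% and 0% in DBA and 42.6% to 48.5% in F1. In no case did the groups overlap, and these differences were the basis of the choice. In F1 reads over the last site the B6 chromosome was at 92.1% (316 reads) and the DBA chromosome at 0.615% (325 reads). The window of that site held 10.3% DBA reads in the library labelled B6 male, and those of the other 4 sites less than 1%.

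The other members around these 5 CGs were methylated in both strains. At the Soat1 site the 5 neighbours differed between strains by -0.0866 to 3.23 points, and all were at 90.9% or more in every mouse. At the site on chromosome 3 the 2 neighbours, the nearer 2 bases away, differed by -6.24 and -3.12 points, against 97.0 points at the site itself. Around the Rap1b site 5 neighbours differed by -3.22 to 5.32 points. In each of these windows the difference was thus confined, among the members measured, to the called CG.

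Over all 8 mice, levels were fitted to the share of B6 genome (B6 1, F1 0.5, DBA 0) and sex in a quasi-binomial model, with dispersions moderated by limma and Benjamini-Hochberg adjustment over all CGs. At an adjusted p below 0.05 and a fitted difference of at least 20 points, 122 of 29018 members were called (0.420%, against 0.248% of the 165087 CGs tested). Of these 119 were higher in B6 (0.219% of all CGs) and 3 in DBA (0.0291%). Without the windows of more than 10% DBA reads 108 of 23595 members were called (0.458%, against 0.269% of all CGs left). Of the 122 CGs, 108 were among the female calls and 69 were called whichever mouse was left out.

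In 6 regions at least 3 members were called in this model, all higher in B6. The region with the most, 4 of its 5 CGs, lay at chr12:26556160-26556324, 183.4 kb from a 5S rRNA gene and 435.3 kb from Rnf144a, a ubiquitin ligase gene. It was at 73.1% and 70.96% in the B6 female and male, 17.97% and 21.5% in DBA, 37.9% and 45.5% in BXD and 37.1% and 47.5% in DXB. The 3 groups by share of B6 genome did not overlap. All 6 regions were chosen by the fit to this share, so the separation of the groups in them is a description. The number of regions with at least 3 members, and the matching count over all autosomal CGs, are not given here. The region on chromosome 14 lay in a window of 99.1% DBA reads in the library labelled B6 male. In the windows of the other regions the highest share of DBA reads was 0.832%. A count of regions from the fit without the windows of DBA reads is not given here.

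The region at chr2:20924221-20924404, 33.7 kb upstream of Arhgap21, had all of its 3 CGs called. It was at 76.4% and 78.2% in B6, 31.5% and 31.3% in DBA, 62.5% and 60.6% in BXD and 60.1% and 60.7% in DXB. The mice of a strain differed by less than 2 points, and the F1 mice lay nearer to B6.

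The region on chromosome 6 (3133550 to 3133582), 188.7 kb downstream of Samd9l, was at 45.6% and 60.7% in B6, 10.9% and 17.9% in DBA, 33.0% and 33.4% in BXD and 21.6% and 19.8% in DXB. Its median coverage was 284 reads, above the 33 to 180 of members in general, and whether reads from other copies took part was not tested. The fourth region was the island near Gm10330 described above, with 3 of its 17 CGs called. The levels of the strains there did not overlap, in a region chosen by this fit, and all 8 mice were below 20%, as the rule for islands requires.

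The region on chromosome 12 (28626538 to 28626575) was at 82.8% and 90.7% in B6, 19.1% and 31.6% in DBA, 62.4% and 63.0% in BXD and 61.3% and 56.2% in DXB. In F1 reads over it the B6 chromosome was at 87.5% (273 reads over its CGs) and the DBA chromosome at 35.4% (243). With the first and the fourth it was 1 of 3 such regions on chromosome 12, all between 20 and 30 Mb. The last region, on chromosome 14 (20144882 to 20144914), was at 83.2% and 66.0% in B6, 22.4% and 28.9% in DBA, 55.0% and 60.3% in BXD and 43.5% and 52.8% in DXB. In its window 99.1% of the sorted reads of the library labelled B6 male were DBA reads, so the value of 66.0% cannot be taken as that of B6. In F1 reads over it the B6 chromosome was at 72.3% (311 reads over its CGs) and the DBA chromosome at 48.8% (336), a smaller gap than between the female parents.

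**Figure D5:**
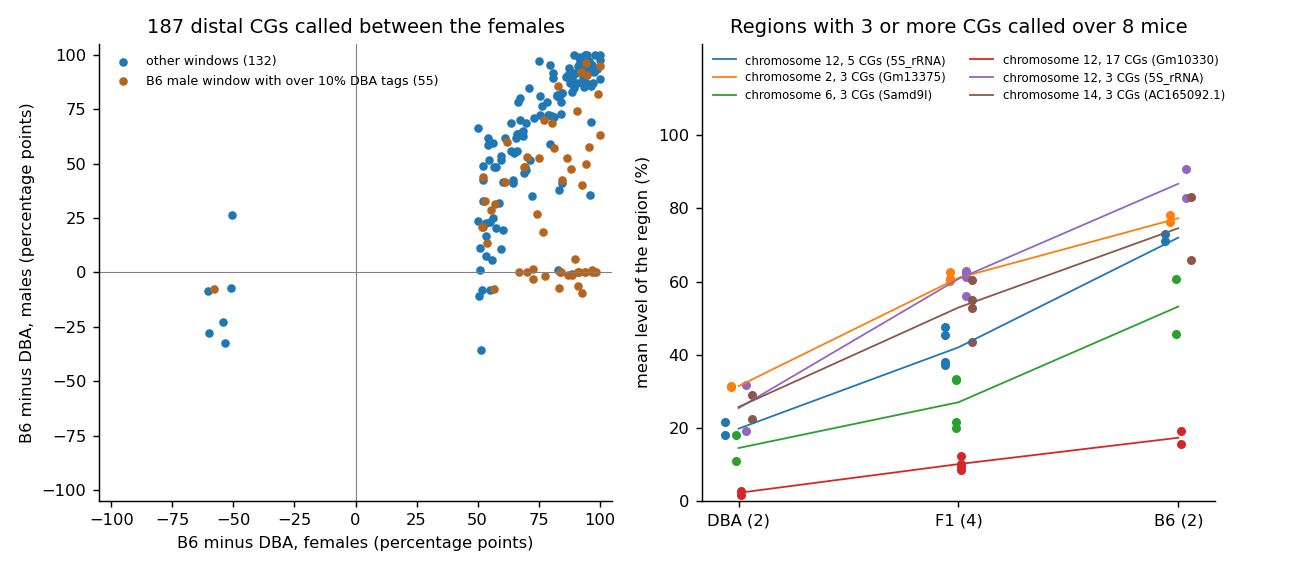
Left, difference B6 minus DBA (percentage points) in males against females for the 187 distal CGs called between the females, with windows of more than 10% DBA reads in the library labelled B6 male in brown (55 CGs), where 16 were called in males. Right, mean level (%) of the 6 regions with at least 3 CGs called over 8 mice, a point for each mouse and a line through the means of the labelled groups. DBA was lowest and B6 highest in each of these regions, which were chosen by the fit to the share of B6 genome. In the region on chromosome 14 the library labelled B6 male held 99.1% DBA reads in its window, so its point cannot be taken as that of B6.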

How the data were processed

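RRBS libraries from livers of 8 mice were analysed. Per the paper's methods, BS Seeker placed the bisulfite reads on mm9, uniquely placed reads were kept, and those holding a SNP were assigned to a parental chromosome. Its version, read trimming and duplicates: not given in the sources used here. What the authors deposited per mouse and class of reads are raw counts, methylated and unmethylated, for every cytosine, with the level as a fraction. They also deposited tables of their comparisons, which were not used and hold 12 columns of single mice as well as mean levels, differences and p-values.

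Counts of all classes were added, and levels were recomputed from the sums. CG context is as deposited. Genes were those of GENCODE M1, and sequences were read from NCBIM37. Members were chosen by position and coverage, and the members, regions and lists were chosen with earlier results of these data known. Named regions were the 10 islands with the most CGs, up to 6 regions with at least 3 CGs called by share of B6 genome, 5 single CGs and 5 regions of largest spread.

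The quasi-binomial model was fitted to all autosomal CGs with 10 reads in each mouse, except those at 0% or 100% in every mouse. Dispersions were moderated with limma (squeezeVar, with a trend on information, for CGs with information above 10) and held at 1 or above. An F test was used, and p-values were adjusted by Benjamini-Hochberg. Mean levels were compared by exact permutation over mice, and parents of a sex by exact (Clopper-Pearson) 95% intervals. The fit and the rule for parents were tested on simulated data. Windows of 1 Mb with at least 100 cytosine calls from sorted reads in the B6 male were examined, and members in other windows were kept. Intervals cover counting error alone: at 10 reads, levels move in steps of 10 points. GC content and CpG ratios were taken over at least 200 bp around a region. Alternatives covered the minimum of reads, distance, region rules, size of difference, Fisher's exact test, limma on transformed levels, strands added and leaving out each mouse. Python 3.11.15, numpy 2.4.6, pandas 2.3.3, scipy 1.17.1, matplotlib 3.10.9, R 4.3.3 and limma 3.58.1 were used.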

Additional observations from a re-analysis of the deposited data

Results flagged for a closer look

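A mouse far from the others was looked for in 17 tests, which covered 2 mean levels (over members and over islands), the 10 islands with the most CGs and the 5 regions of largest spread. Of these tests 2 were positive, and chance alone gives about 1 in 20. That rate does not apply to the second of them, which was chosen for its spread among mice. In the island of 19 CGs upstream of BC017612 the DXB female was at 6.13%, and the other 7 mice were at 0.836% to 3.14%. In the region of 10 CGs near Gm10479 with the largest spread the DBA male was at 39.6%, and the others were at 67.6% to 81.9%. Neither value was checked in a second library of the same mouse.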

How the results depend on the processing

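Of 104 values under other settings, 84 were counted as unchanged, for direction, side of the threshold or nearness to the first value. Sizes changed among these 84, as with distal minus intron, 2.88 points, which was 7.58 beyond 50 kb. Counts among them changed too, as with the calls by share of B6 genome, 122, which were 83 with limma. Islands, 64, were 48 with a limit of 10% in each mouse. The mean level of 73.0% became 74.9% beyond 20 kb from a gene, 77.7% beyond 50 kb and 78.0% over regions. The number of islands (64) became 225 with at least 5 CGs, 27 with at least 20 reads (fewer CGs qualify) and 42 beyond 20 kb. It stayed at 64 whichever mouse was left out, but with the members kept the same this setting could only add islands. The variance ratio of 2.34 was 2.86 at 20 reads, and 2.17 to 2.48 with a mouse left out. Female calls (187) became 556 above 30 points, 75 at 20 reads (13742 CGs tested) and 43 with isolated calls removed, a setting added after seeing the data. Male calls (171) became 669 above 30 points and 79 at 20 reads. Calls by share of B6 genome (122) became 215 without a lower limit on the dispersion, 61 at 20 reads and 83 (without the DBA female) to 183 (without the B6 male) with a mouse left out, and limma called 83, of which 79 were shared. The sex difference of 0.688 points ran from 0.427 to 1.02 with a mouse left out, and passed the threshold without the BXD male. F1 minus parents, 0.160 points, was -0.359 at 20 reads (exact permutation test, p = 0.4), and -0.126 (without the DBA male) to 0.561 with a mouse left out, with -0.0298 without the BXD male. Where construction does not show it, the cause was not tested. Without the windows of more than 10% DBA reads in the B6 male, a setting added after seeing the data, F1 minus parents was 0.0936 points (exact permutation test, p = 0.857), and the other results recomputed kept their direction and side of the threshold or stayed near the first value. The female calls, in which this library has no part, were not recomputed. The labels carry no replicate numbers. Pairing the sexes within a group gave p = 0.25 (exact sign-flip test). With 4 pairs the smallest possible is 0.125, so this test could not have changed the call.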
